A study of Mus musculus with 50 samples.

Results

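Secretoglobin-high mammary tumours were compared with secretoglobin-low ones across all genes, where high meant a level of Scgb1b27 of at least 8.0 on the log2 scale and low meant a level below 8.0. The 50 arrays of the series gave 21 high and 26 low tumours, and 3 tumours (mid60, mid79 and mid100) were left out. Each array was made from a biopsy of a spontaneous mammary tumour, 1 per tumour, taken before drug treatment. High and low tumours shared every label: they came from female mice of an F1Bx cross, in which hybrids of C57BL/6J and FVB/NJ were mated back to FVB/NJ carriers of MMTV-Erbb2. The MMTV promoter, taken from mouse mammary tumour virus, directs Erbb2 to mammary epithelium, and as a backcross the mice differed in the segments they inherited. The labels give no ages, and they disagree on the drug, which the series title calls doxorubicin and the treatment protocol docetaxel. The tumours were thus chosen by the measured level of Scgb1b27, and the 2 sets are not groups that the study made. The labels name no batch.

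Secretoglobins are small secreted proteins made by glandular and airway epithelia. Scgb1b27 codes for the alpha subunit of mouse androgen-binding protein and Scgb2b27 for a beta subunit, and the joined subunits are known as a component of mouse saliva. A cell that exports much protein passes it through the endoplasmic reticulum (ER), where it is threaded through the membrane, folded, checked and sent to the Golgi. The unfolded protein response adjusts that machinery to the load, and the factors Xbp1 and Bhlha15 are known to build it up in professional secretory cells.

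The level of Scgb1b27, which chose the tumours and is described here without a test, lay at 8.05, 10.55 and 12.81 (lowest, median and highest log2 value) in the high tumours and at 4.77, 6.07 and 7.97 in the low tumours. Just inside the threshold were mid186 at 8.05 and mid105 at 8.12, and just outside it were mid128 at 7.97 and mid23 at 7.96. The levels thus ran through 8.0 without a gap. The tumours left out had 10.32 (mid100), 6.85 (mid79) and 4.62 (mid60), and their arrays had a mean correlation with the other arrays of 0.916 to 0.954, against 0.974 to 0.981 in the high and 0.967 to 0.981 in the low tumours.

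Scgb2b27, the gene beside Scgb1b27 on chromosome 7, had 9.84, 11.68 and 12.93 (lowest, median, highest) in high tumours and 6.82, 9.43 and 11.86 in low tumours. All 21 high tumours lay above the low median and 10 lay above every low tumour. The mean difference was 2.27 ± 0.30 (SE), a 4.84-fold higher level. Scgb2b7, another beta subunit gene of the same cluster, had 6.28, 7.59 and 8.66 in high tumours and 5.06, 6.21 and 8.16 in low tumours, a difference of 1.38 ± 0.19. The genes of this cluster are close copies and probes can be shared between them, so the differences of Scgb2b27 and Scgb2b7 are given as a description, with no p, and Scgb2b7 is uncertain. Both entered the fit over all genes and are 2 of the higher genes counted below.

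**Figure D1:**
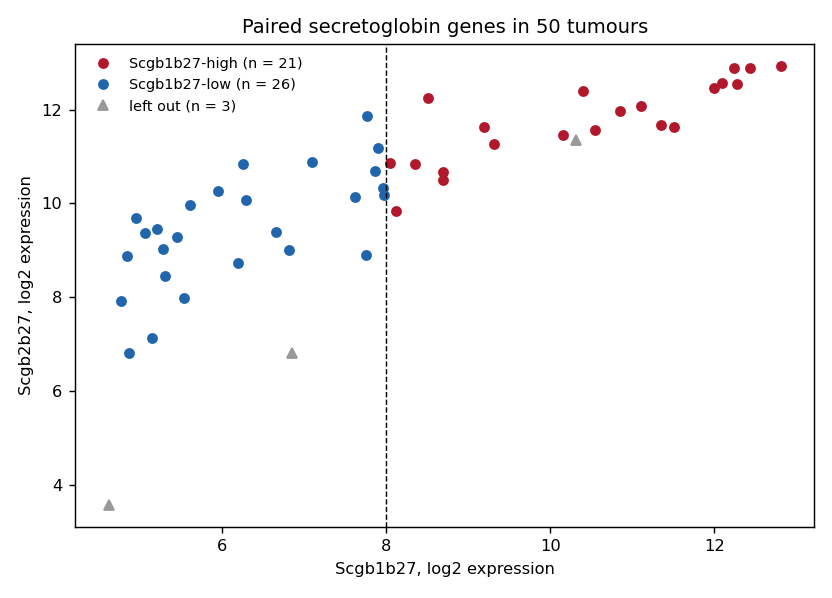
Level of Scgb2b27 (vertical axis, log2) against that of Scgb1b27 (horizontal axis, log2) in each of 50 tumours, with red points for the 21 high tumours, blue points for the 26 low tumours and grey triangles for the 3 left out. The dashed line marks the threshold of 8.0, which the points cross without a gap, and mid60 lies lowest on both axes.

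The likeness of Scgb2b27 and Scgb2b7 extends upstream of the genes. The 250 bases before each start are shown because the pair was higher together, with the stretch that aligns between them in capitals (RefSeq, build GRCm38.p6, minus strand, chr7:34013943-34014192 for Scgb2b27 and chr7:31705755-31706004 for Scgb2b7).
Scgb2b27: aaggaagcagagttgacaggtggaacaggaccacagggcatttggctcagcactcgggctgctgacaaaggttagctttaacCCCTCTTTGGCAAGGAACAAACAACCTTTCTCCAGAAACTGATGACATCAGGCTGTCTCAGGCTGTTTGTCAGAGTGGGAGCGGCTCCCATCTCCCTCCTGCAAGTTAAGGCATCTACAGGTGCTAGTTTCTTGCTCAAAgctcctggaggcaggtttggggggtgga
Scgb2b7: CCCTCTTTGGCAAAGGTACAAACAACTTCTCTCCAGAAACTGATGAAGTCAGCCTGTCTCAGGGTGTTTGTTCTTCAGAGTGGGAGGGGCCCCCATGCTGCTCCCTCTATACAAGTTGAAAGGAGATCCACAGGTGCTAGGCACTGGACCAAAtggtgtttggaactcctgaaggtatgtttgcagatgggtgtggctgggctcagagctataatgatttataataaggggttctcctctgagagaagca
In this alignment 121 of 140 aligned bases were identical (86.4%). Between the promoter of Scgb1b27 and that of Scgb2b27 the best local alignment covered only 29 bases, 20 of them identical.

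Of 29 listed genes, 19 were measured, and 12 of those lay under the filter on low values (a mean of 4.38 on the log2 scale). The genes under the filter differed between high and low tumours by -0.03 to 0.20. One value stood apart among them, a Scgb2b26 level of 6.53 in a single high tumour. Above the filter, Scgb1b3 averaged 8.86 ± 0.20 (SD) in high and 8.80 ± 0.19 in low tumours, Scgb3a1 5.73 ± 0.12 and 5.70 ± 0.10, Scgb1c1 4.97 ± 0.58 and 4.95 ± 0.69, and Scgb1b20 5.05 ± 0.19 and 4.92 ± 0.15 (n = 21 and 26), and none of these 4 passed the test. All 6 secretoglobins tested beside Scgb1b27 had a positive difference, against 52.9% of all tested genes. Those of the 4 genes just named were only 0.03 to 0.12. Of these 4, Scgb1b20 alone had an unadjusted p under 0.05 (limma), and secretoglobin genes can share probes with Scgb1b27. The genes under the filter were not tested.

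Across 16634 tested genes other than Scgb1b27, 143 passed at an adjusted p under 0.05 (limma, Benjamini-Hochberg over all tested genes), which is 0.86% of them. Of these 86 were higher in the high tumours (0.517% of tested genes) and 57 were lower (0.343%). An unadjusted p under 0.05 was reached by 2169 genes, and the median difference over all genes was 0.00462. The difference was positive for 52.9% of all tested genes. Genes of a list were read in the same 47 tumours, so counts of a shared sign below are not separate observations. For 0 of the 143 genes did the high and low tumours separate without overlap. Most differences were small: 136 of the 143 were under 2-fold, and the median was 1.24-fold for higher and 1.35-fold for lower genes.

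The number of genes called depended on single tumours. Leaving out 1 tumour at a time gave between 48 calls (without mid37) and 219 calls (without mid122), and 44 of the 143 genes were called in all 47 such fits. Fibroblast and matrix markers moved with the split, while of 13 T and NK cell markers 0 had an unadjusted p under 0.05 (limma). The mean level of 21 fibroblast and matrix markers was 6.26, 7.30 and 8.98 (lowest, median, highest tumour) in high tumours and 6.64, 8.08 and 10.33 in low tumours. With scores for fibroblasts and matrix, endothelium, macrophages, and T and NK cells as covariates, 21 genes were called (0.126%), 19 of the 143 among them, and all 143 kept their sign. The differences of the 86 higher genes kept a median of 94.7% of their size and 0 of them shrank by over 1.5 times, while those of the 57 lower genes kept a median of 76.5% and 21 shrank by that much. In bulk tumour RNA, fewer cells of a type and less RNA per cell cannot be told apart.

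After Scgb2b27, the largest increase among called genes was that of Prol1. Prol1, a mucin-like protein of the mouse submandibular gland, had 5.49, 7.60 and 12.10 (lowest, median, highest) in high tumours and 4.11, 5.71 and 10.74 in low tumours. The ranges overlapped widely, although 20 of 21 high tumours lay above the low median. The difference was 1.91 ± 0.47 (SE; 3.75-fold, adjusted p = 0.0369), and it passed in 36 of the 47 fits that left out 1 tumour.

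Klk1b11, a tissue kallikrein of the salivary duct family, had 6.52, 7.70 and 9.07 in high tumours and 4.89, 6.44 and 7.97 in low tumours. Every high tumour lay above the low median, and 8 lay above all low tumours (difference 1.20 ± 0.23, adjusted p = 0.00454). Kallikrein genes of this family are near copies of each other, so which of them the probes read is uncertain. Egf, a growth factor that the mouse submandibular duct secretes, had 6.00, 7.65 and 8.80 in high tumours and 5.04, 6.42 and 8.24 in low tumours. Here 18 of 21 high tumours lay above the low median (difference 1.0 ± 0.26, adjusted p = 0.0461).

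Odam, a secreted protein first known from tooth-forming cells, was near the bottom of the scale in most tumours, with 4.27, 5.33 and 9.58 in high and 3.97, 4.54 and 7.74 in low tumours. Only 3 high tumours lay above every low tumour (difference 1.21 ± 0.32, adjusted p = 0.0489), and the call held in 11 of the 47 fits without 1 tumour. Pigr, the receptor that carries immunoglobulin A into secretions, had 7.90, 9.15 and 10.63 in high tumours and 6.49, 8.43 and 10.06 in low tumours. Its difference was 0.84 ± 0.22 (adjusted p = 0.0455). The call was lost at a threshold of 7.0 (0.52, adjusted p = 0.326), at 9.0 (0.74, adjusted p = 0.203) and with all 50 tumours (0.78, adjusted p = 0.126). Lrrc26, an auxiliary subunit of the BK potassium channel found in secretory epithelia, had 7.96, 9.43 and 10.43 in high tumours and 6.36, 8.66 and 9.62 in low tumours, and 9 high tumours lay above every low one (difference 0.92 ± 0.20, adjusted p = 0.0178).

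With the 4 cell type scores as covariates Klk1b11 kept its call (limma, adjusted p = 0.0462), while Prol1 (adjusted p = 0.195), Egf (0.151), Odam (0.144), Pigr (0.292) and Lrrc26 (0.108) lost theirs. Their differences were then 1.08 for Klk1b11, 1.69 for Prol1, 1.01 for Egf, 1.24 for Odam, 0.68 for Pigr and 0.87 for Lrrc26.

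**Figure D2:**
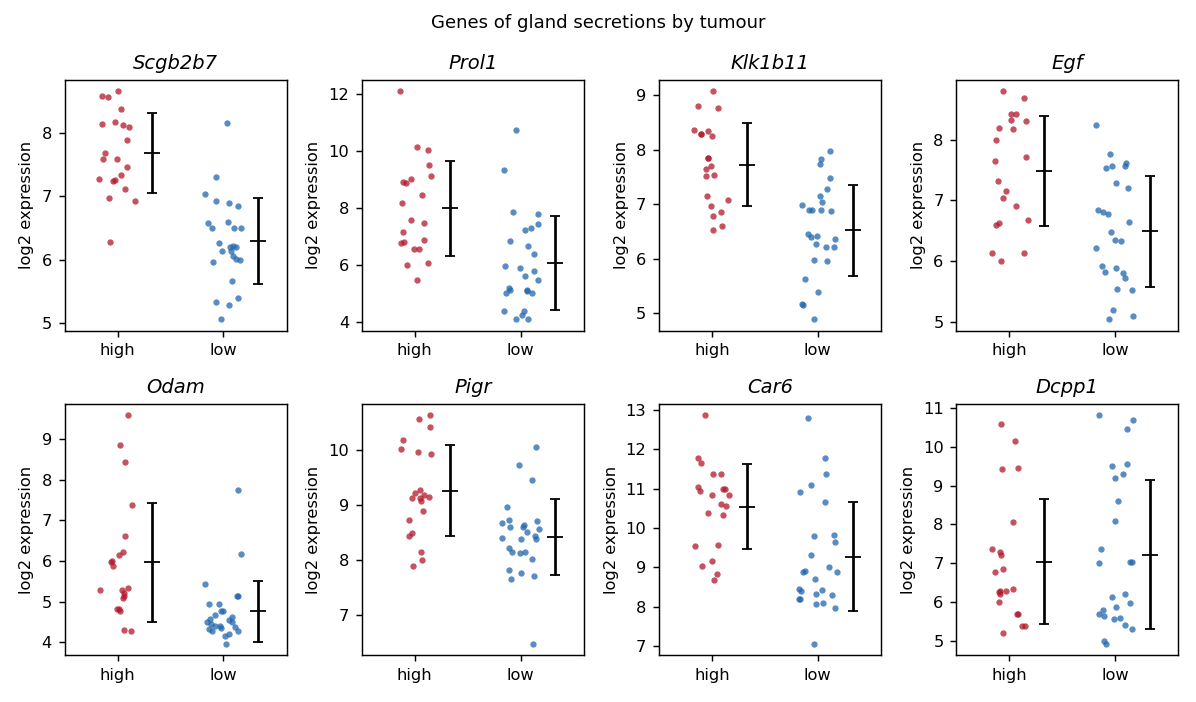
Level (vertical axes, log2) of gland secretion genes in each tumour, with 21 high tumours in red left of 26 low tumours in blue in every panel and with mean ± SD beside the points. Each gene overlaps between high and low tumours, and Prol1 spreads widest, from 5.49 to 12.10 in the high tumours.

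Of 19 tested salivary acinar genes 2 were higher (Prol1 and Bhlha15) and 0 lower, against 0.517% and 0.343% of all tested genes. The difference was positive for 14 of the 19 (52.9% of all tested genes were positive), with a median of 0.05 against 0.00462 over all genes. Car6, a secreted carbonic anhydrase, had 8.68, 10.83 and 12.86 in high tumours and 7.06, 8.88 and 12.80 in low tumours, and its difference of 1.27 ± 0.36 missed the threshold (adjusted p = 0.0651). The demilune cell genes gave -0.18 for Dcpp1, -0.35 for Dcpp2 and 0.19 for Dcpp3. Smr2, a submandibular prohormone gene, averaged 4.43 in high and 4.51 in low tumours, and its highest level, 10.12, was in a low tumour. The water channel Aqp5 was abundant in both, at 12.26 ± 0.26 (SD) in high and 11.98 ± 0.36 in low tumours (adjusted p = 0.128).

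Several salivary markers, Smr3a, the amylase Amy1, Pip, Prb1, Cst10 and Fxyd2, lay under the filter, and their medians reached at most 4.33 in high and 4.31 in low tumours. Single tumours stood above that, with highest levels of 6.92 for Pip and 6.41 for Cst10 in high tumours and 5.93 for Smr3a in low tumours. Of 15 measured salivary duct genes 11 lay under the filter, and of the 4 tested, Klk1b11 and Egf were higher and all 4 differences were positive (median 0.52). Among 17 tested genes of lacrimal and other gland secretion 1 was higher (Pigr), and 0 were lower; for both lists the shares over all tested genes were 0.517% higher and 0.343% lower. Within that list Fetub differed by 0.58, Ltf by 0.62, Lao1 by 0.37 and Apod by -0.70, and none of these passed.

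Within the high and within the low tumours, Scgb2b27 was set against 7 of these secretion genes, which made 14 relations. Pearson's r with Prol1 was 0.54 in both the high tumours (permutation p = 0.0124, adjusted 0.0865) and the low tumours (permutation p = 0.00444, adjusted 0.0622), and Spearman's rho was 0.47 (adjusted 0.200) and 0.57 (adjusted 0.0409). With the 2 tumours most distant from the median Scgb2b27 level taken out, r was 0.38 in high and 0.49 in low tumours. By Pearson's r 0 of the 14 relations passed after adjustment, and by rho the Prol1 relation in low tumours did. For Dcpp1, r was -0.40 in high and -0.36 in low tumours (permutation test, adjusted p = 0.147 for both), and -0.13 and -0.35 without the 2 most distant tumours.

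Of the 86 higher genes, 26 were in lists of secretory pathway genes and 60 were in none of those lists. The pathway genes were sorted into 5 lists by their place in the pathway after the values had been seen, so the counts describe the result and do not test it. Together the lists held 145 tested genes, of which 26 were higher (17.9%, against 0.517% of all tested genes) and 0 were lower. The difference was positive for 128 of the 145, against 52.9% of all tested genes, with a median of 0.12. These shifts were small beside that of Scgb2b27.

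Recognition of signal peptides and transfer into the ER was represented by 6 higher genes of 27, against 0.517% of all tested genes. The signal recognition particle receptor Srpr averaged 0.28 ± 0.06 (SE) more in high tumours (adjusted p = 0.0154), and the translocon helper Tram1 0.26 ± 0.06 (adjusted p = 0.0178). Serp1, which steadies membrane proteins under ER stress, differed by 0.29, the signal peptidase subunits Sec11c and Spcs1 by 0.35 and 0.16, and the particle's own subunit Srp68 by 0.21.

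Among 26 folding enzymes and chaperones 6 were higher, against 0.517% of all tested genes. Ero1b, the ER oxidase of secretory cells that renews disulfide bond formation, had 7.36, 8.24 and 8.95 in high tumours and 6.59, 7.56 and 8.64 in low tumours. Its difference of 0.64 ± 0.11 was the clearest of the list (adjusted p = 0.00282; 20 of 21 high tumours above the low median). Sdf2l1, a partner of the chaperone BiP, differed by 0.51, Ficd, which modifies BiP, by 0.40, Creld2 by 0.34, the co-chaperone Dnajc3 by 0.32 and Cnpy2 by 0.19. BiP itself (Hspa5) averaged 10.14 ± 0.29 (SD) in high and 9.92 ± 0.28 in low tumours and did not pass (adjusted p = 0.175).

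Degradation of misfolded ER proteins gave 6 higher genes of 20, and all 20 differences were positive. Of all tested genes 0.517% were higher and 52.9% had a positive difference. Derl3, a derlin of the retrotranslocation machinery, had 7.42, 8.63 and 10.42 in high tumours and 6.50, 7.53 and 9.33 in low tumours, a difference of 1.0 ± 0.21 (adjusted p = 0.012). Herpud1, which assembles the degradation complex, had 9.58, 10.14 and 11 in high and 9.17, 9.69 and 10.44 in low tumours. Its difference was 0.47 ± 0.09 (adjusted p = 0.00501). The mannosidase-like Edem1 differed by 0.30, the deglycosylating enzyme Ngly1 by 0.27, the ubiquitin ligase Syvn1 by 0.25 and Derl2 by 0.19. For 2 of these the probe set mattered: with the mean of all probe sets Derl2 differed by 0.10 (adjusted p = 0.248) and Edem1 by 0.18 (adjusted p = 0.0561), and with the probe set of largest SD Derl2 differed by 0.02 (adjusted p = 0.945).

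Transport between ER and Golgi had 6 higher genes of 53, against 0.517% of all tested genes. Yipf4, a Golgi membrane protein, had 8.35, 8.59 and 8.91 in high tumours and 8.05, 8.38 and 8.57 in low tumours. Its difference was only 0.28 ± 0.05, yet 11 high tumours lay above every low tumour and its adjusted p of 0.00072 was the smallest of any higher gene outside the secretoglobins. The cargo protein Tmed3 differed by 0.39 (adjusted p = 0.00454), Arfgap3, which acts on COPI coats, by 0.43 (adjusted p = 0.0112), Gorasp1 by 0.31, and the export receptor parts Ctage5 and Mia3 by 0.30 and 0.26. Rab3d, a Rab protein of secretory granules outside these lists, had 8.16, 8.78 and 9.27 in high tumours and 7.74, 8.47 and 8.92 in low tumours (difference 0.39 ± 0.08, adjusted p = 0.0178).

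**Figure D3:**
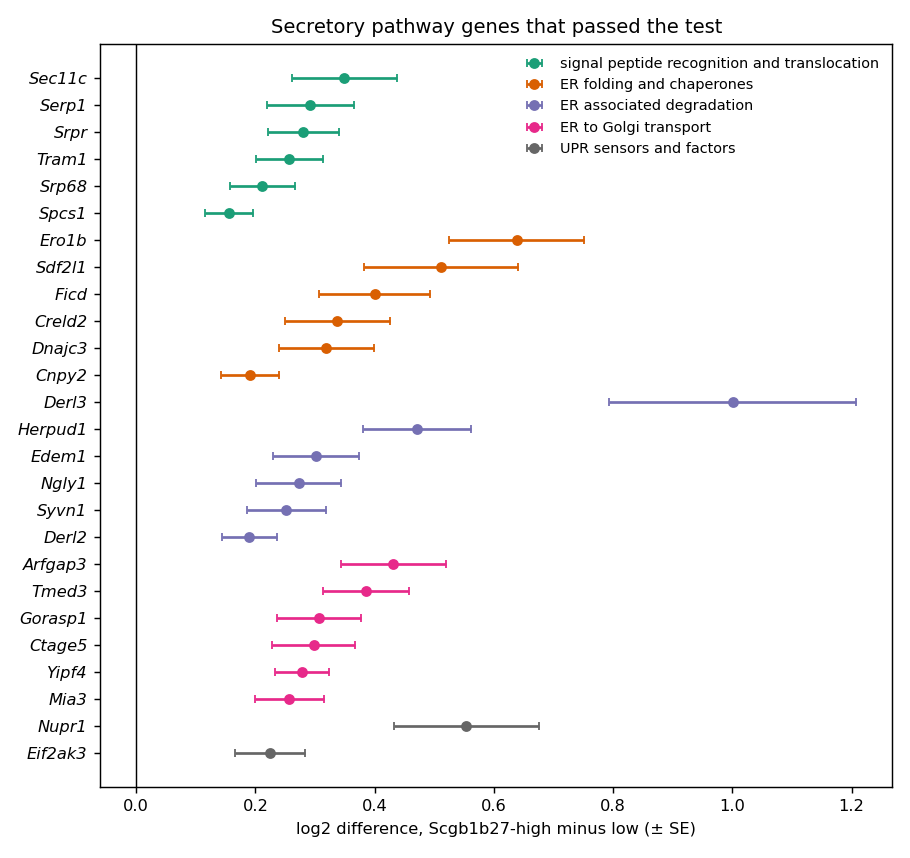
Log2 difference of high minus low tumours (horizontal axis) with its SE for the 26 higher genes of the secretory pathway (vertical axis), coloured by the 5 steps of the pathway. All lie right of 0, and Derl3 at 1.0 and Ero1b at 0.64 lie farthest right.

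Of 19 tested sensors and factors of the unfolded protein response 2 were higher, Nupr1 and Eif2ak3, against 0.517% of all tested genes. Nupr1, a stress-induced chromatin protein, had 9.25, 9.69 and 10.45 in high and 8.31, 9.19 and 9.96 in low tumours. Its difference was 0.55 ± 0.12 (limma, adjusted p = 0.0178). The kinase Eif2ak3 (PERK) differed by 0.22 ± 0.06 (adjusted p = 0.0489). Nupr1 was called in all 47 fits without 1 tumour and in 10 of 16 other settings. It lost the call at a threshold of 7.0 (0.41, limma, adjusted p = 0.115) and at 9.0 (0.35, adjusted p = 0.375). Eif2ak3 kept its call at 7.0 (0.29, adjusted p = 0.0032). It lost the call at 9.0 (0.23, adjusted p = 0.105) and with all 50 tumours (0.22, adjusted p = 0.127). Xbp1 averaged 11.46 ± 0.38 (SD) in high and 11.14 ± 0.40 in low tumours and did not pass (adjusted p = 0.166). Atf4 differed by 0.14 (adjusted p = 0.362). An array of this kind does not read splicing of Xbp1 or cleavage of Atf6 by these gene levels.

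A shorter list of 18 unfolded protein response and secretion genes gave 4 higher, Herpud1, Dnajc3, Sdf2l1 and Creld2, and 0 lower. The shares over all tested genes were 0.517% higher and 0.343% lower. These 4 are also among the 26 secretory pathway genes already described, so the lists overlap and the counts are not separate. All 18 differences were positive, with a median of 0.21. With the 4 cell type scores as covariates, 7 of the 26 secretory pathway genes were still called: Ero1b, Srpr, Ficd, Edem1, Mia3, Herpud1 and Yipf4. The sizes changed little: the 26 differences kept a median of 98.3%, and 0 of them shrank by over 1.5 times. Derl3 had 0.95 and Dnajc3 0.33 with the scores, although neither was called (adjusted p = 0.096 and 0.125).

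The ER stress response element (ERSE, which is CCAAT, then 9 bases of any kind, then CCACG) and ERSE-II (ATTGG, then 1 base of any kind, then CCACG) are known in mammals as binding sites of the response's factors, and both were searched on both strands in the 250 bases before each gene's start (RefSeq, GRCm38.p6), together with the element TGACGTGG. Of 22 higher secretory pathway genes with a promoter in the table, ERSE was found in 5 (Creld2, Derl3, Dnajc3, Ero1b and Syvn1) and ERSE-II in Herpud1. Among all 27025 promoters ERSE was found in 35 (0.13%) and ERSE-II in 10 (0.037%), and TGACGTGG in 163 (0.603%). Of the 122 tested genes of the 5 lists with a promoter, called or not, 10 had ERSE (8.2%). A match describes letters and not a bound site. The promoters of the clearest genes are shown from the motif's surroundings to the base before the start, plus strand, with the match in capitals; where the capitals begin with CGTGG the match is on the other strand. The coordinates are chr10:75893242-75893397 (Derl3), chr13:12565682-12565882 (Ero1b) and chr8:94386329-94386428 (Herpud1).
Derl3: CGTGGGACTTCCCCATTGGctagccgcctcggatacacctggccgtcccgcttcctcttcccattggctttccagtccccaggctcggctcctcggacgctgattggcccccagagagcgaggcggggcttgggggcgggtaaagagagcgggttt
Ero1b: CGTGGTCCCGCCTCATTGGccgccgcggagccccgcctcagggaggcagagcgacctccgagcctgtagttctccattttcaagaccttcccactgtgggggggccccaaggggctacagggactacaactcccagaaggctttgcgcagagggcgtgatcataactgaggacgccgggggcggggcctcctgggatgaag
Herpud1: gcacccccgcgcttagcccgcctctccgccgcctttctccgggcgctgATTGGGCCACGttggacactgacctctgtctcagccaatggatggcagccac
TGACGTGG was found in 0 of the 22 higher genes and in 8 of the 122. Of all 71 higher genes with a promoter in the table, in the secretory lists or not, 7 had any of the 3 motifs, and 1 had TGACGTGG. Any of the 3 motifs was found in 0 of the 41 lower genes with a promoter in the table and in 136 of 12829 tested genes (1.06%). For 41 genes a count of 0 is near that share.

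Bhlha15 and Spdef, factors of secretory cells, were higher. Bhlha15 (Mist1), a factor of serous secretory cells, had 7.76, 8.33 and 9.61 in high tumours and 6.74, 7.96 and 8.72 in low tumours. The difference was 0.54 ± 0.14 (adjusted p = 0.0489; called in 18 of the 47 fits without 1 tumour). Spdef, an ETS factor of secretory and luminal epithelia, had 6.70, 8.03 and 8.80 in high tumours and 6.42, 7.49 and 8.08 in low tumours, a difference of 0.54 ± 0.14 (adjusted p = 0.0411). Spdef was the 1 higher gene among 14 tested hormone receptors and luminal factors, against 0.517% of all tested genes. Of 20 genes listed as gland transcription factors 0 passed (3 at an unadjusted p under 0.05), near the 0.86% called over all tested genes. Klf5 differed by 0.28, Barx2 by 0.42 and Tfap2b by -0.38 (limma, adjusted p = 0.9), the last with levels of 3.63 to 10.13 in high and 3.57 to 9.77 in low tumours.

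The transgene's receptor Erbb2 averaged 11.69 ± 0.21 (SD) in high and 11.68 ± 0.18 in low tumours (difference 0.02 ± 0.06 SE, adjusted p = 0.954). Of 19 luminal epithelium genes 0 passed with limma (3 at an unadjusted p under 0.05), with a median difference of 0.06. Of 29 proliferation genes 0 passed (0 unadjusted), and Mki67 differed by 0.14. Of 16 androgen and glucocorticoid targets 0 passed (0 unadjusted), with a median of -0.05. Over all tested genes 0.86% were called. For lists of this size 0 calls is near that share, and it does not show that their genes were unchanged.

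Of 18 milk genes 1 was higher (0.517% of all tested genes were), Csn3 (kappa casein), with 12.55, 12.83 and 13.13 in high tumours and 12.02, 12.68 and 12.91 in low tumours. The difference was 0.20 ± 0.05 (adjusted p = 0.0486), close to the top of the array's scale, where the highest value was 13.65. The call was lost under several other settings, among them ranks within each array (adjusted p = 0.801), another quantile normalization (adjusted p = 0.0592) and a threshold of 7.0 in place of 8.0 (adjusted p = 0.221). The other caseins had larger differences that did not pass, 0.69 for Csn2 and 0.60 for Csn1s1. Csn2 lay between 10.28 and 13.48 in high tumours and between 4.82 and 13.35 in low tumours.

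Matrix and contractile genes led the lower set. Col12a1, a collagen that coats fibrils, had 5.55, 7.34 and 9.27 in high tumours and 6.76, 8.70 and 11 in low tumours, and only 3 of 21 high tumours exceeded the low median. The difference was -1.31 ± 0.28 (2.48-fold lower in high tumours, adjusted p = 0.0142). Fbln2, an elastic fibre protein, had 6.22, 7.48 and 8.83 in high and 6.62, 8.67 and 10.20 in low tumours (-0.94 ± 0.20, adjusted p = 0.0178).

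The proteoglycan Bgn had 8.46, 10.30 and 11.65 in high and 8.88, 11.11 and 12.72 in low tumours (-0.91 ± 0.24, adjusted p = 0.0489), a call held in 13 of the 47 fits without 1 tumour. The smooth muscle actin Acta2 had 7.90, 8.72 and 9.68 in high and 8.29, 9.52 and 11.46 in low tumours (-0.77 ± 0.19, adjusted p = 0.0351). Its partner, the myosin light chain Myl9, differed by -0.77, the calponin Cnn2 by -0.79, and Timp3, an inhibitor of matrix proteases, by -0.68. Osr1, a transcription factor of connective tissue precursors, had 6.06, 7.01 and 7.80 in high and 6.96, 7.74 and 8.77 in low tumours, and 1 high tumour exceeded the low median (-0.67 ± 0.14, adjusted p = 0.0115).

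Of 21 tested fibroblast and matrix markers all had a negative difference, with a median of -0.70, and 2 passed (Bgn and Thy1). Postn (-1.10, adjusted p = 0.0567), Col1a1 (-0.90, adjusted p = 0.106) and Dcn (-1.38, adjusted p = 0.17) did not. A list of 39 contractile and matrix genes that was made after the values were seen had 18 lower and 0 higher, against 0.343% lower and 0.517% higher among all tested genes. With the 4 cell type scores as covariates none of those 18 was called, although their differences kept a median of 60.8% of their size, and 12 of the 18 shrank by over 1.5 times. With the scores Bgn had -0.13 and Col12a1 -0.46, while Cnn2 had -0.76 and Cavin2, a protein of caveolae, -0.51, close to their differences of -0.79 and -0.53 without the scores. Bgn and Thy1 are themselves part of the fibroblast score. Before adjustment 20 of the 21 fibroblast and matrix markers had a p under 0.05. The endothelial list had 18 of 18 differences below 0 (median -0.19, 0 called, 9 at an unadjusted p under 0.05), the macrophage list 16 of 17 (median -0.17, 0 called, 3 unadjusted) and the basal and myoepithelial list 10 of 10 (median -0.25, with Acta2 called, 8 unadjusted). The adipocyte list had 11 of 12 below 0 (median -0.14, 0 called, 1 unadjusted), and its carbonic anhydrase gene Car3 had the lowest difference of all tested genes (-1.40, adjusted p = 0.169, not called). The skeletal muscle list had 12 of 12 below 0, 0 called and 0 at an unadjusted p under 0.05. Its mean level was 5.19, 5.31 and 5.68 (lowest, median, highest tumour) in high tumours and 5.19, 5.32 and 10.03 in low tumours. The medians were thus nearly the same, and the highest levels were not. The part of stroma in the secretory differences was not tested beyond the fit with the scores.

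**Figure D4:**
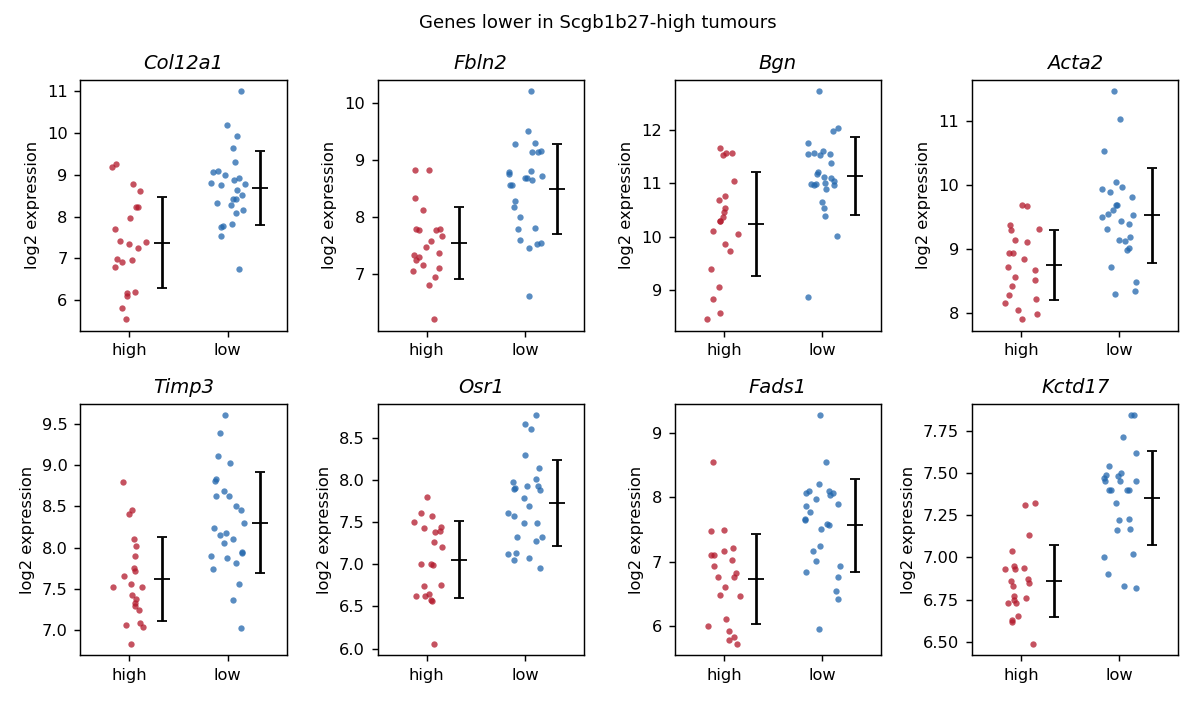
Level (vertical axes, log2) of 8 genes that were lower in the high tumours, with 21 high tumours in red left of 26 low tumours in blue and with mean ± SD beside the points. Every gene overlaps between high and low tumours, and Kctd17 has the tightest spread.

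Kctd17, an adaptor of a cullin ubiquitin ligase, had 6.49, 6.85 and 7.32 in high tumours and 6.82, 7.40 and 7.84 in low tumours, and 0 high tumours exceeded the low median. Its difference of -0.49 ± 0.07 had an adjusted p of 0.000113, the smallest outside the secretoglobins. Cdc42bpa, a kinase that acts on actomyosin, differed by -0.32 ± 0.06 (adjusted p = 0.00347), and Mpdz, a scaffold of tight junctions, by -0.38 (adjusted p = 0.00454).

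The front desaturases of polyunsaturated fatty acids were lower as a pair. Fads1 had 5.73, 6.76 and 8.55 in high tumours and 5.96, 7.66 and 9.27 in low tumours (-0.83 ± 0.20, adjusted p = 0.0351), and Fads2 had 6.80, 8.76 and 9.90 in high and 8.06, 9.51 and 10.56 in low tumours (-0.75 ± 0.19, adjusted p = 0.0455). With the 4 cell type scores as covariates Fads1 had -0.66 (limma, adjusted p = 0.285) and Fads2 -0.72 (adjusted p = 0.168), and neither was called. Both kept the call at a threshold of 7.0 and lost it at 9.0 and with all 50 tumours. Their neighbour Fads3 differed by -0.54 and did not pass (adjusted p = 0.0516), while Scd1, a stearoyl desaturase, differed by 0.32 (adjusted p = 0.452). Whether Fads1, Fads2 and Fads3 share an inherited segment was not tested. The 14 genes of cholesterol and fatty acid synthesis gave 0 calls (1 unadjusted), near the 0.86% called over all tested genes. Among the remaining lower genes were Zfp521 (-0.82), Gfpt2 of the hexosamine pathway (-0.73), Rflnb (-0.71), the taurine transporter Slc6a6 (-0.66) and the kinase Cdk14 (-0.66).

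Other genes among the 15 largest increases were Hnmt, which inactivates histamine (0.74 ± 0.19, adjusted p = 0.0486), Dusp5, a phosphatase of ERK (0.70 ± 0.15, adjusted p = 0.0178), and the zinc finger genes Zfp872 (0.64 ± 0.12, adjusted p = 0.00454) and Zfp932 (0.58 ± 0.15, adjusted p = 0.0439). Zfp872 lay above every low tumour in 9 high tumours. With the 4 cell type scores as covariates Hnmt had 0.65 (limma, adjusted p = 0.27) and Dusp5 0.55 (adjusted p = 0.2). Zfp872 then had 0.54 (adjusted p = 0.096) and Zfp932 0.67 (adjusted p = 0.0513), so none of these genes was called. At a threshold of 9.0 Dusp5 and Zfp932 lost the call, and with all 50 tumours Hnmt did.

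**Figure D5:**
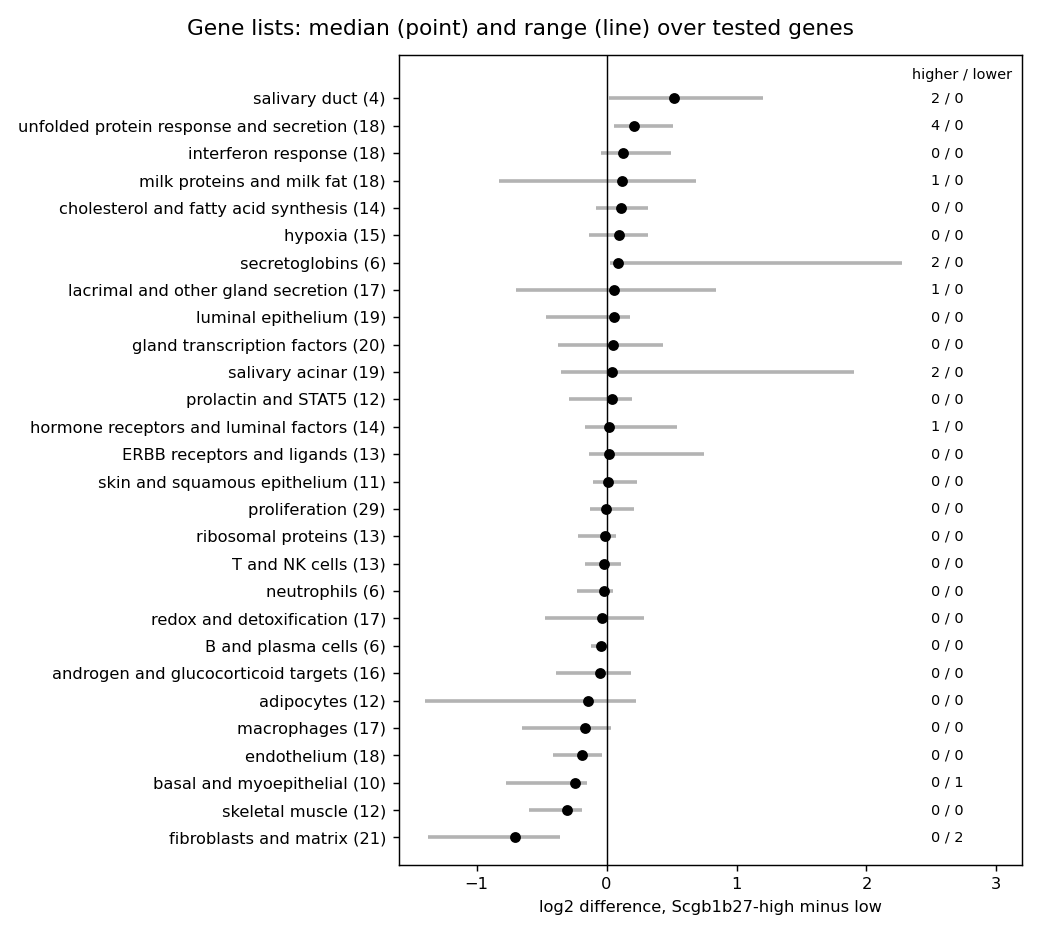
Median (point) and range (line) of the log2 difference of high minus low tumours for the tested genes of 28 lists, with the number tested in brackets and the numbers called higher and lower at the right. Fibroblasts and matrix lie lowest, at -0.70, and unfolded protein response and secretion lie second from the top, with 4 higher and 0 lower.

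Because the mice were a backcross, genes near Scgb1b27 could share an inherited segment. Of the 25 nearest measured genes on each side, 34 were tested. Leaving aside the secretoglobins, which can share probes with Scgb1b27, the remaining 30 gave 0 calls with limma (6 at an unadjusted p under 0.05). Their differences were -0.29 to 0.41, with a smallest adjusted p of 0.202. Over all 16634 tested genes 0.86% were called and 2169 had an unadjusted p under 0.05, so 0 calls among 30 genes is near the share over all genes. Chromosome 7 as a whole had 13 calls of 1347 tested genes (0.965%), within the range over the autosomes of 0.196% (chromosome 4) to 1.395% (chromosome 9). Genotypes were not measured here, so inheritance itself was not tested.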

How the data were processed

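Biotinylated cRNA from 6 ug of Trizol RNA was hybridised to Affymetrix arrays, per the labels. The authors deposited log2 expression values after RMA, per the submitters' processing notes, which also name the build mm8 without a role; no RMA version is named there. RMA makes array distributions alike, which hides a shift common to most genes, and low values are compressed. The table held 34472 probe sets. The platform annotation gave 23521 of them 1 gene, 1814 several and 9137 none, and only those with 1 gene were used; 23328 matched the RefSeq gene table (GRCm38.p6), used for names and order. A gene with several probe sets (1082 of 22180) was read from the one with the highest mean over all 50 arrays. Genes with a mean over the 47 tumours under the 25th percentile were left out.

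High minus low was fitted with limma 3.58.1 (lmFit, eBayes with trend, R 4.3.3) on 47 tumours without covariates, with Benjamini-Hochberg adjustment over 16634 genes and a threshold of 0.05. The script was tested on simulated data. Arrays are from separate tumours, their number limits the precision, and 0 pairs were identical. Relations used two-sided permutation tests with 100000 resamples. Python 3.11.15, pandas 2.3.3, scipy 1.17.1 and biopython 1.88 were used. The members, the 28 lists and the tests were chosen with earlier results of these data known, and 7 more lists were made after the values were seen. Named genes were the 15 largest positive and 15 largest negative differences among called genes, secretoglobins, gland genes, and in each list the 3 with the largest statistic and those called; others, such as Kctd17, Rab3d, Mpdz and the milk genes beside Csn3, were chosen after their values were seen. Alternatives changed the filter, the threshold, the split, the probe set, the normalization, the weights and the covariates, and left out each tumour. The order of genes in the casein region was looked at after the calls were known.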

Additional observations from a re-analysis of the deposited data

How the results depend on the processing

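The main counts were 86 higher and 57 lower genes. They changed by over 1.5 times, higher and lower in that order, to 42 and 32 without a filter on low values, 37 and 9 with all 50 tumours, 175 and 101 at a threshold of 7.0, 26 and 4 at 9.0, 373 and 262 with Scgb1b27 as a continuous predictor, 182 and 109 with a split on Scgb2b27 at its median, 197 and 96 without tumours between 7.0 and 9.0, and 15 and 6 with scores of 4 other cell types. Array weights gave 112 lower. Of the main calls, 66 and 32 were shared at 7.0, 21 and 2 at 9.0, and 82 and 54 with the continuous predictor. The causes were not tested. Leaving out 1 tumour gave 31 to 127 higher and 17 to 118 lower genes. The total moved by over 1.5 times without mid37 (48), mid130 (51), mid7 (55), mid101 (57), mid111 (63), mid26 (63), mid117 (65), mid120 (70), mid16 (70), mid54 (70), mid9 (70), mid30 (74), mid11 (80), mid71 (86), mid102 (88), mid75 (94) and mid122 (219). Of the 10 nearest genes on each side of Scgb1b27, 1 was called, against 2 of the 25 nearest, secretoglobins in both cases. Spearman's rho gave 1 relation that passed, against 0 by Pearson's r. The mean of all probe sets left 1 call among salivary acinar genes and 0 among milk genes. For single named genes under these alternatives, 779 comparisons stayed on the same side of the threshold, 273 lost the call and 0 turned direction. No paired analysis was possible because the labels give 1 group. Values near the floor of the array, such as most of Odam, are compressed and can understate differences. Whether the Odam difference was understated was not tested.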

Other observations

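Odam, Csn3 and Prol1, which were all higher in the high tumours, lie within 9 measured genes of each other on chromosome 5, in the casein region. In the stretch from 15 measured genes before them to 15 after, 21 genes were tested and these 3 were called (14.3%, against 0.86% of all genes); the stretch was picked because of those calls. Before them in gene order, Csn1s1, Csn2 and Csn1s2a differed by 0.60, 0.69 and 0.57, with adjusted p of 0.633, 0.529 and 0.665 (limma). Smr2, between Csn3 and Prol1, differed by -0.08 (adjusted p = 0.963), and Amtn, next after Prol1, by -0.01.

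The enzymes that start the hexosamine pathway, which makes the sugar donor for glycosylation, differed in opposite directions. Gfpt1 had 9.11, 9.48 and 10.07 (lowest, median, highest) in high tumours and 8.36, 9.16 and 10.04 in low tumours (0.34 ± 0.09, adjusted p = 0.047, limma), while Gfpt2 had 5.30, 6.25 and 7.71 in high and 5.79, 7.29 and 8.26 in low tumours (-0.73 ± 0.18, adjusted p = 0.0369). With the 4 cell type scores neither was called: Gfpt1 had 0.39 (adjusted p = 0.0678) and Gfpt2 -0.26 (adjusted p = 0.626). Galnt3, which starts O-linked glycans, was higher by 0.27 (adjusted p = 0.0455), Magt1, a part of the oligosaccharyltransferase, by 0.27 (adjusted p = 0.042), and Nucb2, a calcium-binding protein of the secretory route, by 0.55 (adjusted p = 0.0369). With the scores these had 0.22, 0.31 and 0.51, with adjusted p of 0.294, 0.096 and 0.134. These genes were chosen after their values were seen.

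Interferon, hypoxia, lymphocyte and ribosomal lists had 0 calls with limma. For lists of this size that is near the 0.86% called over all tested genes, and it does not show that their genes were unchanged. Of 18 interferon response genes 17 were positive with a median of 0.12 (1 at an unadjusted p under 0.05), and of 15 hypoxia genes 10 were positive with a median of 0.09 (1 unadjusted). The ribosomal protein list had a median of -0.01 over 13 genes (1 unadjusted), the T and NK cell list -0.02 over 13 and the B and plasma cell list -0.04 over 6 (0 unadjusted in both lymphocyte lists).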
